A study of Mus musculus with 12 samples.

Results

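Expression of 10 genes of oxidative and metal stress defence was examined in the livers of 12 male mice: Nqo1, Gclc, Gclm, Txnrd1, Srxn1, Cat and Sod1, which protect against oxidants, and Mt1, Mt2 and Slc39a14, which bind or take up metals. They were picked by gene symbol from the 17859 genes of the authors' transformed expression table and joined by Ensembl identifier to the table of counts, which lists 51912 genes, and all 10 were found. The rule itself used no measured value. Of the 10, 9 passed the filter on low counts and were tested among 8594 genes, and Nqo1 did not pass it.

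The mice fell into 4 groups of 3. Wild-type (WT) mice were injected with the vehicle, corn oil, or with CITCO, a compound that activates human CAR (the constitutive androstane receptor). Mice of the hCAR/hPXR line, which carry the human forms of CAR and of PXR, another drug-sensing receptor, and mice of the Car KO/hPXR line, which lack Car and carry human PXR, were injected with CITCO. Injections of 10 mg/kg CITCO or corn oil were intraperitoneal and daily for 4 days, and the mice were killed on day 5. All were adult males, and the modified lines were made on a C57BL/6NTac background. The corn oil libraries analysed here are all WT, so for the humanised lines the effect of genotype and the response to CITCO cannot be told apart. Libraries were read from the 3' ends of messenger RNA and held between 1167027 and 2341572 counts. Expression is given as CPM, counts scaled to a fixed library size, and a count of 3 was worth between 1.34 and 2.51 CPM. Mouse Nr1i2 (PXR) and Nr1i3 (CAR) had at most 6 counts in each of the 6 libraries of the modified lines and at least 100 in each WT library, and Cyp2b10, the classical CAR target, had at least 184 counts in the hCAR/hPXR libraries against at most 6 elsewhere. The 5 hepatocyte markers summed to 22260, 22940 and 36890 CPM in the hCAR/hPXR libraries and to between 28160 and 36550 CPM in the 9 others. By this sum, hCAR/hPXR replicates 1 and 2 lay below all other libraries. Alb, the most abundant marker, lay between 7649 and 20010 CPM in the hCAR/hPXR libraries. This group had the lowest mean of Alb, Ttr, Cps1 and Serpina1c, but not of Apoa1 (3957 CPM, against 3582 CPM with corn oil). Whether the sum follows the number of hepatocytes was not tested.

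NRF2 (Nfe2l2) is a transcription factor held inactive by Keap1 until oxidants or electrophiles modify Keap1. It then binds antioxidant response elements near genes that make glutathione, recycle thioredoxin and reduce quinones. Metallothioneins are small cysteine-rich proteins that hold zinc and copper. Their genes are switched on in liver by zinc through the factor MTF1, which binds metal response elements, and also by glucocorticoids and by cytokines of the acute phase response.

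Mt1 and Mt2 are neighbours on chromosome 8 of GRCm38. In GENCODE M21, Mt2 runs from 94172664 to 94173568 and Mt1 from 94179082 to 94180327, both on the plus strand and both with 3 exons, with 5513 bases between them. These neighbours were the 2 genes that passed the test and they moved together, so the 250 bases before the RefSeq start of each are printed here, 5' to 3', from the plus strand of GRCm38.p6. Capitals mark the core of the metal response element, TGCACNC or TGCGCNC, on either strand. The window of Mt1 is chr8:94178839-94179088 and that of Mt2 is chr8:94172368-94172617.

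Mt1: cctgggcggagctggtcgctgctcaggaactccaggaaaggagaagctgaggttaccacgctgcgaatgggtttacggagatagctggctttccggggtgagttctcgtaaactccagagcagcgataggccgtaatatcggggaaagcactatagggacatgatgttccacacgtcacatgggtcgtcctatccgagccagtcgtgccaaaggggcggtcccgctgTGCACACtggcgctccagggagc
Mt2: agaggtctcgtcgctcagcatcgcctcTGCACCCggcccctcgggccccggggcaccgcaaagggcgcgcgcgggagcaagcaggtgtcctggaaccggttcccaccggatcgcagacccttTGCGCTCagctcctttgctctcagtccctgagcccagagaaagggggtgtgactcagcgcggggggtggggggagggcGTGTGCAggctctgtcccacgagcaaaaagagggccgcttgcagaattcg

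Promoter windows of 300 bases, from 250 before to 50 after the RefSeq start, were listed for 8 of the 10 genes, and Gclc and Slc39a14 had no entry. The metal response core occurred 3 times in the Mt1 window and 4 times in that of Mt2. It also occurred 3 times in the window of Gclm and 1 time in that of Srxn1, which did not pass the test. The windows of Nqo1, Txnrd1, Cat and Sod1 held 0. For Mt1, 1 of the 3 lies before the start, at -23 to -17, and the others lie at 3 to 9 and 21 to 27 after it. For Mt2, 3 of the 4 lie before the start and 1 at 5 to 11 after it. The RefSeq starts used here are not the GENCODE starts given above. Of all 32851 windows of this length, 25.7% held the core at least once, 7.11% at least 2 times and 0.517% at least 4 times. The antioxidant response core, TGACNNNGC on either strand, occurred once each in the windows of Gclm, Srxn1, Sod1 and Mt2 and in 1 of the 3 windows of Txnrd1, against 12.4% of all windows. A STAT site, TTCNNNGAA (the same on both strands), had no match in the windows of Mt1 and Mt2 and was held by 8.3% of all windows. In Gclm, 1 metal response core overlapped the antioxidant core. These matches describe the letters of the windows and say nothing of binding.

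Across the 4 groups, a test of any difference was passed by Mt1 (adjusted p = 0.00721) and Mt2 (adjusted p = 0.00304), and by 1.42% of all genes tested (quasi-likelihood F test of edgeR, with p-values adjusted by Benjamini and Hochberg's method over all 8594 genes). The other 7 genes did not pass it, with adjusted p-values from 0.191 for Gclc to 0.964 for Sod1 in the same edgeR test. The plot of expression by library shows all 10 genes.

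**Figure D1:**
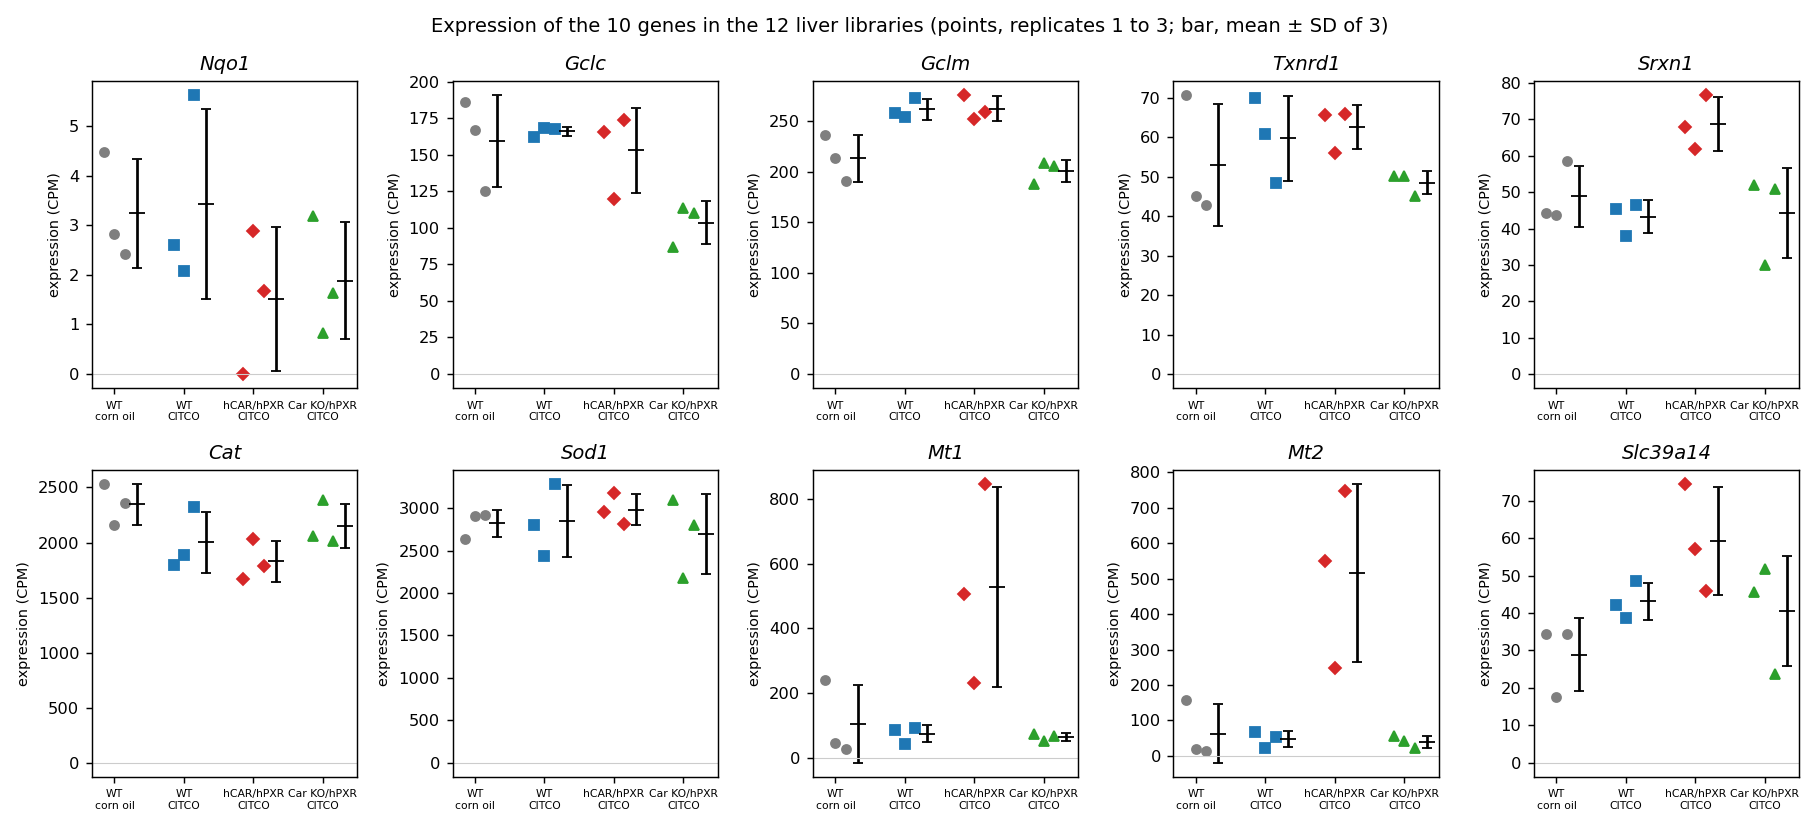
Expression of the 10 genes in CPM (vertical axes, from 0) in each library, by group, with 1 point per mouse and a bar for the mean ± SD of 3 mice. Mt1 and Mt2 were high in the hCAR/hPXR libraries and in 1 WT corn oil library, at 241.9 CPM for Mt1, while the groups of Sod1 overlapped throughout.

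Mt1 and Mt2 were higher in hCAR/hPXR mice than in both other groups given CITCO. Mt1 had 507.7, 230.8 and 847.4 CPM in the hCAR/hPXR libraries and 86.9, 43.6 and 91.5 CPM in the WT CITCO libraries. In the Car KO/hPXR libraries it had 73.7, 51.8 and 67.4 CPM. In the WT corn oil libraries it had 241.9, 44.4 and 27.2 CPM. Every hCAR/hPXR library lay above every other CITCO library, and the first WT corn oil library lay above the lowest hCAR/hPXR library. In whole liver, a change in the number of cells of a type and a change in RNA per cell cannot be told apart. The mean was 529 ± 309 CPM in hCAR/hPXR livers and 74.0 ± 26.4 CPM in WT CITCO livers (SD, n = 3 each), a 7.11-fold difference (log2 fold change 2.83, standard error 0.58, adjusted p = 0.0363, edgeR). Against Car KO/hPXR mice, at 64.3 ± 11.3 CPM (SD, n = 3), Mt1 was 8.16-fold higher (log2 fold change 3.03, standard error 0.59, adjusted p = 0.0242, edgeR).

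Mt2, the paired isoform, had 551.3, 248.2 and 749 CPM in the hCAR/hPXR libraries and 67.5, 21.4 and 52.1 CPM in the WT CITCO libraries. The Car KO/hPXR libraries had 56.6, 40.9 and 21.4 CPM. The WT corn oil libraries had 157.7, 18.3 and 12.7 CPM. All 3 hCAR/hPXR libraries lay above all 9 others. The Mt2 mean was 516 ± 252 CPM in hCAR/hPXR livers and 47.0 ± 23.4 CPM in WT CITCO livers (SD, n = 3 each), a 10.9-fold difference (log2 fold change 3.45, standard error 0.66, adjusted p = 0.0201, edgeR). Over the Car KO/hPXR group, hCAR/hPXR livers had 12.8-fold more Mt2 (log2 fold change 3.68, standard error 0.67, adjusted p = 0.0161, edgeR). An antisense gene, Gm45774, overlaps Mt2 and had 20 counts in the 12 libraries together, against 3163 for Mt2. The expected count of Mt2 was not whole in 4 of the 12 libraries (tolerance 0.005), as happens where reads are divided between genes, while that of Mt1 was whole in all 12.

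Mt1 and Mt2 together were 2 of the 9 genes tested that were called for the hCAR/hPXR group over the WT CITCO group (adjusted p under 0.05 and a fold change over 1.5), where 0.407% of all genes tested were called. They were also 2 of 9 over the Car KO/hPXR group, where 0.582% were called. These calls rest on few mice. Against WT CITCO, both were called without hCAR/hPXR replicate 2 and lost their call without any of the other 5 libraries, with adjusted p-values up to 0.219 for Mt1 and 0.148 for Mt2, both without WT CITCO replicate 2 (edgeR), while the log2 fold changes lay between 2.31 and 3.19 for Mt1 and between 3.08 and 3.81 for Mt2. Against Car KO/hPXR mice, Mt1 kept its call in 1 and Mt2 in 2 of the 6 fits that each left out 1 library, with adjusted p-values up to 0.114 for both without Car KO/hPXR replicate 3 (edgeR). The gene-wise spread of Mt1 and Mt2 was among the widest, as their coefficients of biological variation of 0.468 and 0.538 exceeded those of 97.4% and 98.4% of genes tested.

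The libraries of the WT corn oil group did not form 1 level for the metallothioneins. Replicate 1 had 540 counts of Mt1 and 352 of Mt2, against 63 and 45 of Mt1 and 26 and 21 of Mt2 in replicates 2 and 3. Between hCAR/hPXR mice and WT mice given corn oil, where 0.989% of all genes tested were called, Mt2 was called (7.84-fold higher, log2 fold change 2.97, standard error 0.63, adjusted p = 0.0248, edgeR) and Mt1 was not (4.92-fold higher, log2 standard error 0.56, adjusted p = 0.0567, edgeR). Without WT corn oil replicate 1 the log2 fold changes were 3.89 for Mt1 (adjusted p = 0.000367, edgeR) and 5.06 for Mt2 (adjusted p = 9.48e-05, edgeR). The call of Mt2 was lost without WT corn oil replicate 2 or 3 or without hCAR/hPXR replicate 1 or 3, with adjusted p-values up to 0.148, and in a fit of the 6 libraries compared, with an adjusted p of 0.0527 (edgeR). Between WT mice given CITCO and corn oil, where 0.233% of all genes tested were called, 0 of the 9 genes were called, and the signs of Mt1 and Mt2 turned on the same library: the log2 fold changes were -0.53 and -0.48, and 1.06 and 1.61 without WT corn oil replicate 1. In this comparison 1 of the 9 genes, Gclm, had an unadjusted p under 0.05, as did 9.13% of all genes.

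The counts of Mt2 per count of Mt1 also differed by group. They were 1.09, 1.07 and 0.884 in the hCAR/hPXR libraries and between 0.317 and 0.790 in the 9 others, and the difference was not tested. In WT corn oil replicate 1, where both genes were high, the ratio was 0.652. Over the 12 libraries the log2 CPM of Mt1 and Mt2 correlated with a Pearson r of 0.978 (Spearman rho 0.937), and after removal of the group means the r was 0.933, which is a description over libraries that share groups and depth.

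**Figure D2:**
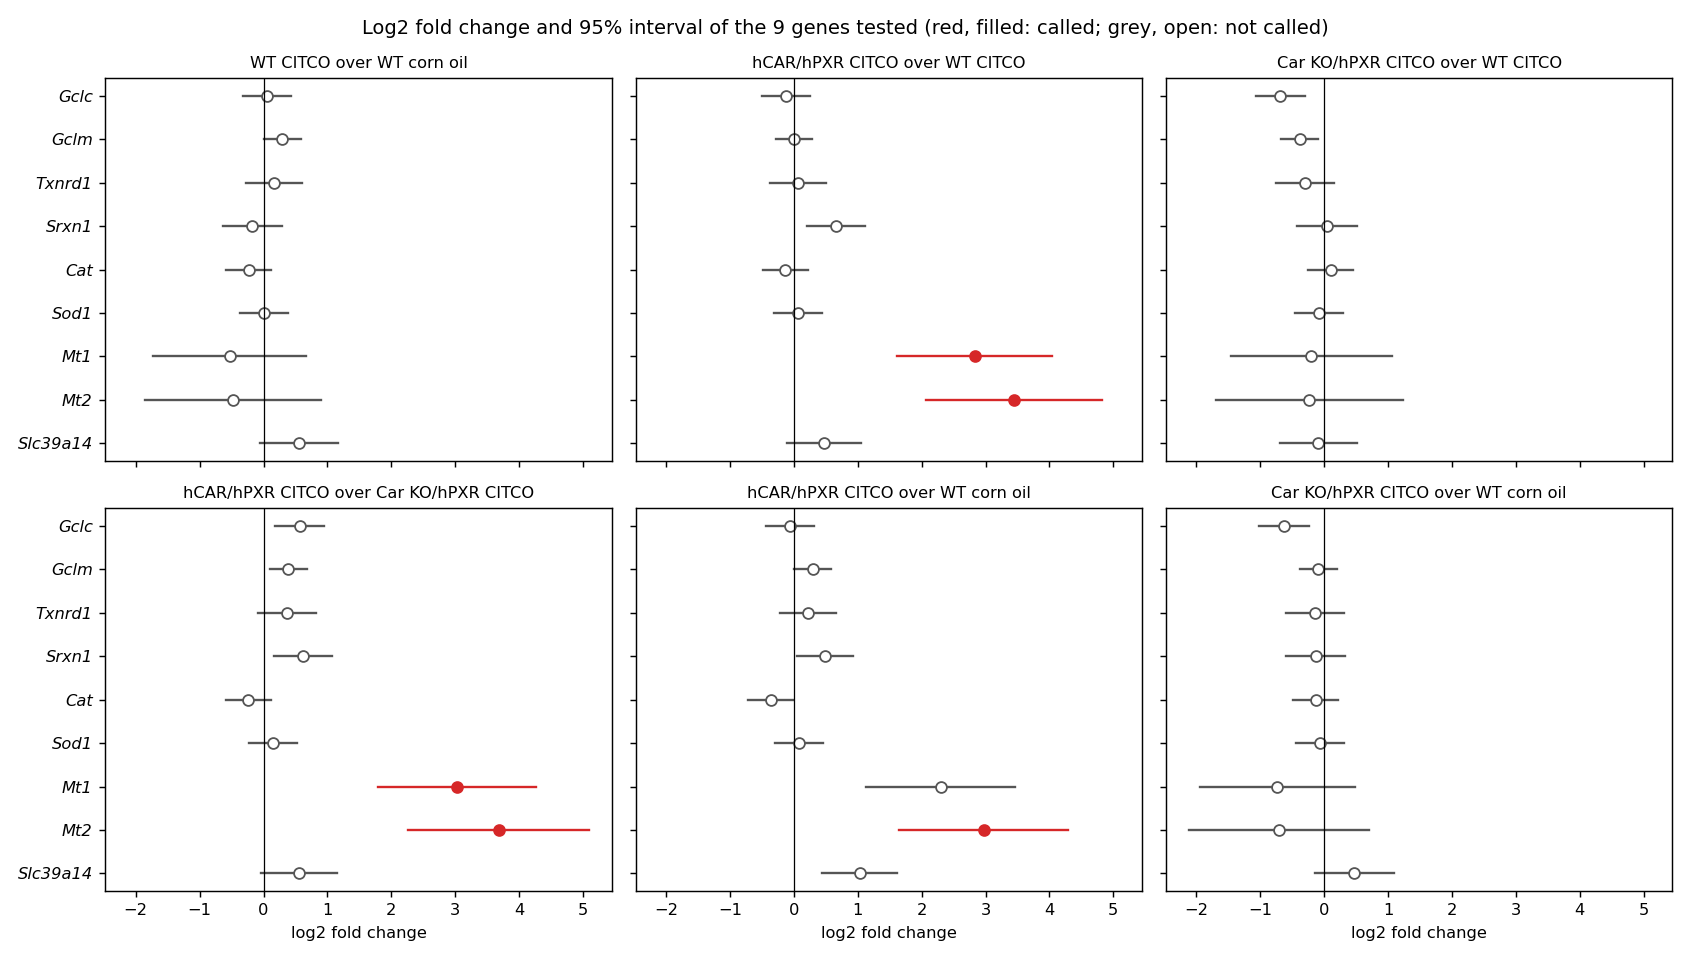
Log2 fold change (horizontal axis) with its 95% interval for the 9 genes tested, in each of the 6 comparisons, with called genes filled red. Mt1 and Mt2 lie far to the right in the comparisons of hCAR/hPXR mice, at 2.83 and 3.45 over WT CITCO, and none of the other 7 genes was called, the furthest from 0 being Slc39a14 at 1.03 over WT corn oil.

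Slc39a14, a transporter that brings zinc and iron into hepatocytes (chromosome 14, 70303469 to 70351425, minus strand), had 74.6, 57.3 and 45.9 CPM in the hCAR/hPXR libraries. It had 42.2, 38.7 and 48.5 CPM in WT mice given CITCO and 45.8, 51.8 and 23.8 CPM in Car KO/hPXR mice. The WT corn oil group had the lowest mean, with 34.5, 17.6 and 34.4 CPM. All hCAR/hPXR libraries lay above all WT corn oil libraries, and the hCAR/hPXR group overlapped with both other CITCO groups. The difference from WT corn oil was 2.04-fold (log2 fold change 1.03, standard error 0.28) and did not pass the test (adjusted p = 0.1075, edgeR). Against WT CITCO the log2 difference was 0.47, with a 95% interval from -0.11 to 1.05.

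The subunits of glutamate-cysteine ligase, which makes the first step of glutathione synthesis, had their lowest group in Car KO/hPXR mice. Gclc, the catalytic subunit (chromosome 9, 77754535 to 77794485), had 87.1, 113.6 and 110.1 CPM in Car KO/hPXR mice and 162.2, 168 and 167.4 CPM in WT mice given CITCO. In hCAR/hPXR mice it had 165.8, 119.8 and 173.5 CPM and in WT mice given corn oil 186.3, 167.1 and 125 CPM. The Car KO/hPXR libraries lay below all 9 others. The difference from WT CITCO was -0.68 on the log2 scale (standard error 0.18, 95% interval -1.07 to -0.30) with an adjusted p of 0.143 (edgeR), short of the threshold, and passed it with DESeq2's Wald test (adjusted p = 0.0407). Over all alternatives the adjusted p lay between 0.0407 and 0.405.

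Gclm, the modifier subunit (chromosome 3, 122245557 to 122270732), had 188.1, 208.7 and 205.3 CPM in Car KO/hPXR mice and 257.5, 253.8 and 273 CPM in WT mice given CITCO. In hCAR/hPXR mice it had 275.6, 251.7 and 258.6 CPM, and with corn oil 236.5, 212.9 and 190.2 CPM. The Car KO/hPXR libraries lay below those of both other CITCO groups and overlapped with those of corn oil. The log2 difference from WT CITCO was -0.38 (standard error 0.14, adjusted p = 0.346, edgeR). The antisense gene Gm17494 overlaps Gclm and had 1033 counts in the 12 libraries, against 4370 for Gclm, whose expected count was whole in all 12. Whether counting used strand is not given in the sources used here, so reads of the shared interval could belong to either gene. For the Car KO/hPXR group over the WT CITCO group, where 0.256% of all genes tested were called, 0 of the 9 genes were called and Gclc and Gclm were the 2 with an unadjusted p under 0.05, as were 9.3% of all genes. For the same group over WT corn oil, where 0.0465% were called, 0 of the 9 were called and Gclc (log2 fold change -0.63) was the 1 gene with an unadjusted p under 0.05, as were 5.6% of all genes.

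Txnrd1, which encodes the cytosolic thioredoxin reductase (chromosome 10, 82833951 to 82897712), had its highest value, 70.8 CPM, in WT corn oil replicate 1 and otherwise lay between 42.9 and 70.1 CPM. Its group means ran from 48.5 ± 2.87 CPM in Car KO/hPXR mice to 62.6 ± 5.62 CPM in hCAR/hPXR mice (SD, n = 3 each). The hCAR/hPXR libraries lay above the Car KO/hPXR libraries, and no comparison of Txnrd1 passed the test.

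Srxn1, sulfiredoxin, which repairs overoxidised peroxiredoxins (chromosome 2, 152105516 to 152111376), had 67.9, 61.9 and 76.7 CPM in hCAR/hPXR mice. It had 45.4, 38 and 46.4 CPM in WT mice given CITCO, 52.1, 30.1 and 50.9 CPM in Car KO/hPXR mice and 44.3, 43.7 and 58.6 CPM with corn oil. All 3 hCAR/hPXR libraries lay above all 9 others. The log2 differences were 0.66 over WT CITCO (standard error 0.22, adjusted p = 0.283), 0.62 over Car KO/hPXR (adjusted p = 0.271) and 0.49 over WT corn oil (adjusted p = 0.399) by edgeR, and none passed the test in any alternative.

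Cat, catalase, and Sod1, the copper-zinc superoxide dismutase, remove peroxide and superoxide. Cat (chromosome 2, 103453849 to 103485160, minus strand) lay between 1665 and 2527 CPM, with group means from 1828 ± 184.5 CPM in hCAR/hPXR mice to 2348 ± 187 CPM in WT corn oil mice (SD, n = 3 each). The log2 difference between these groups was -0.36 (95% interval -0.71 to -0.01, adjusted p = 0.449, edgeR). Sod1 (chromosome 16, 90220754 to 90226329) lay between 2178 and 3288 CPM, and its largest log2 difference in the 6 comparisons was 0.15. Its expected count was whole in 0 of the 12 libraries, so its level is uncertain where reads are divided between genes.

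Nqo1, a quinone reductase and a common readout of NRF2 (chromosome 8, 107388225 to 107403206, minus strand), was close to the limit of detection. It had 10, 4 and 4 counts with corn oil and 4, 3 and 8 in WT mice given CITCO. It had 0, 5 and 2 counts in hCAR/hPXR mice and 5, 1 and 2 in Car KO/hPXR mice. The groups overlapped, and a difference between them was not detectable at this depth. Its likeness to other genes was not described because it was not tested.

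The 6 comparisons share libraries and are not independent of each other. Of the 9 genes tested, 6 had libraries that did not overlap between the hCAR/hPXR and Car KO/hPXR groups, against 15.1% of all genes, and 5 between hCAR/hPXR and WT corn oil mice, against 16.2%. The median log2 fold change of the 9 genes was 0.56 and 0.30 in these comparisons, against 0.01 over all genes in both. For hCAR/hPXR over WT CITCO it was 0.07, with 3 of 9 not overlapping, against 13.7% of all genes.

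The wider pathway was examined by lists of genes, beside which the share of all genes with an unadjusted p under 0.05 was between 5.6% and 10.9% in the 6 comparisons. Of NRF2 and its regulators (Nfe2l2, Keap1 and others), 9 of 10 genes were tested. None was called in any of the 6 comparisons (between 0 and 3 of the 9 at an unadjusted p under 0.05). Between WT CITCO and corn oil mice 5 of the 9 did not overlap, against 14.7% of all genes. Between hCAR/hPXR and corn oil mice it was also 5, against 16.2%, and in each other comparison 1 or 2. The most abundant were Sqstm1, an autophagy adaptor that binds Keap1, Mafg, a partner of NRF2, and Rbx1. In WT mice Sqstm1 was at 532 ± 10.97 CPM with corn oil and 390 ± 34.8 CPM with CITCO. Mafg was at 177.5 ± 2.34 and 136 ± 3.01 CPM, and Rbx1 at 84.4 ± 3.22 and 74.5 ± 5.72 CPM (SD, n = 3 each). In hCAR/hPXR mice Sqstm1, Mafg and Rbx1 were at 456 ± 82.0, 163 ± 31.6 and 85.1 ± 10.9 CPM. In Car KO/hPXR mice they were at 525 ± 90.7, 164 ± 32.4 and 77.6 ± 13.3 CPM (SD, n = 3 each). Of 23 other NRF2 targets, 19 were tested and 1, Osgin1, an oxidative stress induced growth inhibitor, was called, in hCAR/hPXR mice over WT corn oil (1.98-fold higher, log2 fold change 0.99, adjusted p = 0.04997, edgeR), where 0.989% of all genes were called. Osgin1 had 235.7, 148.7 and 142.6 CPM in hCAR/hPXR mice and 75.7, 117.8 and 74.9 CPM with corn oil. The median log2 fold change of these 19 genes was 0.15 in that comparison and 0.05 for hCAR/hPXR over WT CITCO. At an unadjusted p under 0.05 there were between 1 and 6 of the 19 in each comparison.

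Of 23 other antioxidant enzymes (superoxide dismutases, glutathione peroxidases, peroxiredoxins), 20 were tested and 0 were called in any comparison (between 2 and 3 at an unadjusted p under 0.05). In hCAR/hPXR livers 15 of the 20 were lower than in WT CITCO livers (median log2 fold change -0.10) and 17 were lower than in Car KO/hPXR livers (median -0.20). In WT mice, 9 of the 20 did not overlap between CITCO and corn oil, against 14.7% of all genes. The most abundant were Selenop at 3544 ± 290 CPM, Gpx1 at 2612 ± 293 CPM and Msrb1 at 978 ± 180 CPM in hCAR/hPXR mice (SD, n = 3), and at 3980 ± 227, 2916 ± 861 and 972 ± 61.0 CPM in WT mice given CITCO. Of 20 genes of zinc transport and metal response, 15 were tested and 0 were called in any comparison (between 1 and 6 at an unadjusted p under 0.05). The 6 were for hCAR/hPXR over Car KO/hPXR mice, where 10.6% of all genes had such a p. There 11 of the 15 were higher (median log2 fold change 0.30). Over WT CITCO 11 were higher (median 0.19) with 2 at such a p, and over corn oil 9 (median 0.09) with 4. Mt3 and Mt4 were not in the transformed table and were not analysed here. Slc30a1, the zinc exporter that MTF1 switches on, was at 88.4 ± 21.05 CPM in hCAR/hPXR mice, 77.7 ± 4.72 CPM in WT mice given CITCO, 89.8 ± 16.2 CPM in Car KO/hPXR mice and 90.7 ± 33.4 CPM with corn oil (SD, n = 3 each). Its log2 difference between hCAR/hPXR and WT CITCO mice was 0.19 (adjusted p = 0.868, edgeR), with a 95% interval from -0.31 to 0.70. Whether metal had a part in the metallothionein result was not tested. The most abundant others, the zinc importers Slc39a1 and Slc39a4, were at 132 ± 13.9 and 69.3 ± 11.74 CPM in hCAR/hPXR mice and at 130 ± 16.1 and 82.4 ± 13.1 CPM in WT mice given CITCO (SD, n = 3). In Car KO/hPXR mice they were at 98.3 ± 5.75 and 105.4 ± 24.2 CPM, and with corn oil at 103.7 ± 6.18 and 93.6 ± 5.87 CPM. All hCAR/hPXR libraries lay above all libraries of these groups for Slc39a1 and below them for Slc39a4.

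**Figure D3:**
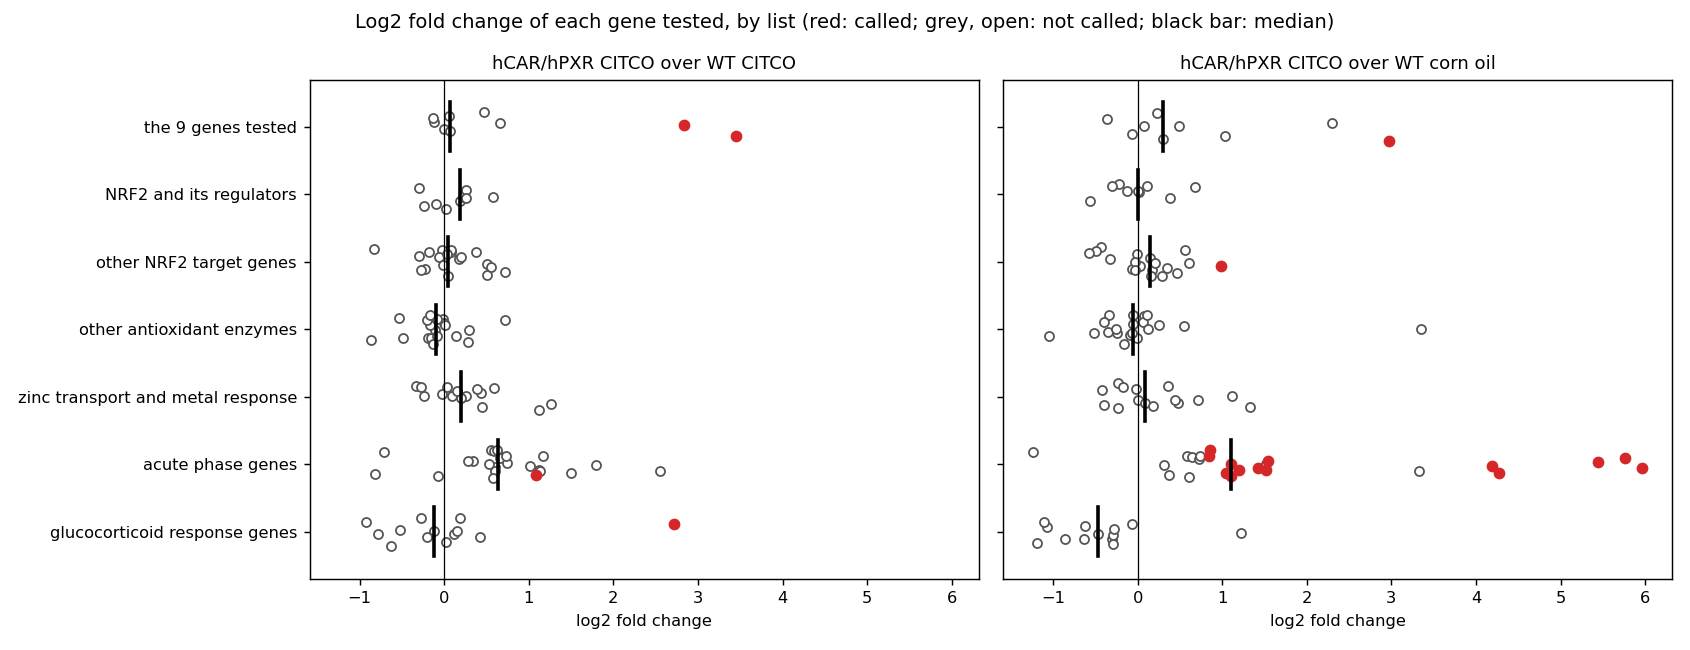
Log2 fold change of every gene tested (1 point per gene, horizontal axis) for the 9 genes and the 6 lists, with the median of each list as a black bar and called genes in red, for hCAR/hPXR mice over WT CITCO (left) and over WT corn oil (right). The acute phase genes are the list whose points lie furthest right over WT corn oil, with a median of 1.10, while the medians of the other NRF2 targets and the other antioxidant enzymes were 0.15 and -0.06.

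Other gene groups were also examined beside the metallothioneins. Of 24 acute phase genes, liver proteins made in response to inflammatory cytokines, all were tested. In hCAR/hPXR mice over WT corn oil, 23 of the 24 were higher and 14 were called, where 0.989% of all genes were called, with a median log2 fold change of 1.10. The 14 were the serum amyloids Saa2 (log2 fold change 5.96), Saa1 (5.76), Saa3 (4.19) and Saa4 (1.43), the iron-siderophore binder Lcn2 (5.44), the orosomucoids Orm2 (4.27) and Orm1 (1.10), Apcs (1.54), the haemoglobin and haem binders Hp (1.51) and Hpx (1.201), Itih4 (1.10), Lbp (1.04) and the fibrinogen chains Fga (0.85) and Fgb (0.84), with adjusted p-values from 0.0033 to 0.0486 (edgeR). Of the 24, 5 were called higher over Car KO/hPXR mice (Saa2, Saa4, Orm2, Hp and Lbp; 0.582% of all genes), 1 over WT CITCO mice (Saa4; 0.407% of all genes) and, in WT mice, 2 with CITCO over corn oil (Saa1 and Saa2; 0.233% of all genes). Saa1 had 2321, 1828 and 78.1 CPM in the WT CITCO libraries and 99.9, 53.6 and 18.1 CPM with corn oil. Saa2 had 955.5, 475.7 and 24.6 CPM against 27.3, 12.7 and 8.45 CPM. For both genes WT CITCO replicate 3 lay below WT corn oil replicate 1. Leaving out 1 library was not tried for these calls. In hCAR/hPXR mice 22 of the 24 were higher than in Car KO/hPXR mice (median log2 fold change 0.88). There 18 had an unadjusted p under 0.05 (edgeR), against 10.6% of all genes. Compared with WT CITCO mice 21 were higher (median 0.64) and 17 had such a p, against 8.81%. The summed expression of the acute phase list was 45550, 24480 and 32990 CPM in the hCAR/hPXR libraries and between 15490 and 26490 CPM in the others. Within the WT CITCO group, replicates 1, 2 and 3 had 26490, 23380 and 17670 CPM of acute phase genes and 154.4, 65 and 143.5 CPM of Mt1 and Mt2 together. In the WT corn oil group these sums were 18080, 17410 and 15490 CPM, and 399.5, 62.75 and 39.85 CPM. In the Car KO/hPXR group they were 18090, 19890 and 17130 CPM, and 130.3, 92.7 and 88.7 CPM. The hCAR/hPXR replicates 1, 2 and 3 had 1059, 479 and 1596 CPM of Mt1 and Mt2 together, beside the acute phase sums given above. The part of the acute phase genes in the metallothionein result was not tested.

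Of 16 genes that respond to glucocorticoids, 13 were tested and 1, Igfbp1, was called, in hCAR/hPXR mice over WT CITCO (6.60-fold higher, log2 fold change 2.72, adjusted p = 0.000783, edgeR), where 0.407% of all genes were called, and the median log2 fold change of the 13 was -0.12. In hCAR/hPXR mice 12 of the 13 were lower than in WT corn oil mice (median log2 fold change -0.47). Against Car KO/hPXR mice 9 of the 13 were lower (median -0.31). In each of these comparisons 6 of the 13 had an unadjusted p under 0.05 (edgeR), against 10.9% and 10.6% of all genes. Over WT CITCO there were 3, against 8.81%. For WT CITCO over corn oil 11 of the 13 were lower (median -0.43). The sum of the list was highest in WT corn oil replicate 1, at 4762 CPM, the library with the high Mt1. It lay between 2435 and 4221 CPM in the others, with 3148, 4005 and 2665 CPM in the hCAR/hPXR libraries. The part of this list in the metallothionein result was not tested.

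The 5 neutrophil markers summed to 34.7, 34.1 and 50.1 CPM in the hCAR/hPXR libraries (59 to 67 counts) and to between 2.81 and 10.9 CPM in the 9 others (4 to 14 counts). S100a8 and S100a9 carried these sums, with 29 to 44 and 12 to 35 counts in hCAR/hPXR libraries, while Ly6g had at most 2 counts and Retnlg at most 3 in any library. WT corn oil replicate 1, with high Mt1, had 3.58 CPM of the neutrophil markers. The 6 Kupffer cell markers summed to between 354.5 and 488.6 CPM in hCAR/hPXR libraries and between 247.5 and 432 CPM elsewhere, and the 6 red blood cell markers to between 1866 and 2195 CPM and between 1995 and 4000 CPM. The sums for stellate cells (239.5 to 269.9 CPM), liver endothelial cells (172.5 to 192.7 CPM) and cholangiocytes (16.2 to 20.02 CPM) in hCAR/hPXR libraries overlapped those of the other 9 libraries. An alternative chosen after seeing the data kept hCAR/hPXR replicate 3 alone in its group. The log2 fold changes over WT CITCO were then 3.52 for Mt1 and 3.99 for Mt2. This library had the highest Mt1 and Mt2 of all, at 847.4 and 749 CPM, so higher fold changes follow from the choice. A single library has no spread of its own. The median log2 fold change of the acute phase genes was then 0.61 over WT CITCO, 0.88 over Car KO/hPXR and 1.04 over WT corn oil. The part of neutrophils and the other cell types in the metallothionein result was not tested.

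**Figure D4:**
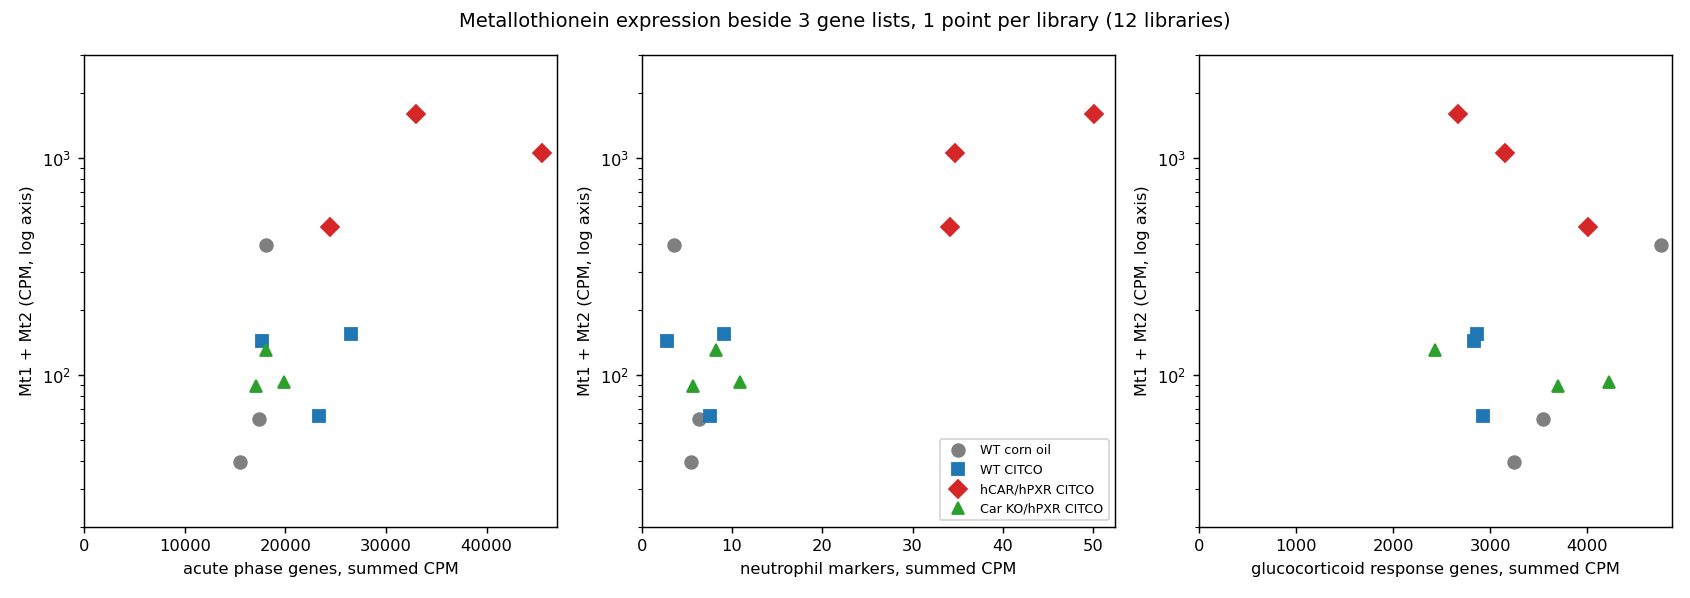
Summed Mt1 and Mt2 expression (vertical log axis, CPM) against the summed CPM of the acute phase genes, the neutrophil markers and the glucocorticoid response genes (horizontal axes from 0), with 1 point per library and a colour per group. The hCAR/hPXR libraries (red) lie highest, from 479 to 1596 CPM, and WT corn oil replicate 1 lies at 399.5 CPM. In its group that library has the highest acute phase sum, 18080 CPM, and the lowest neutrophil sum, 3.58 CPM.

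The genes whose log2 CPM was most like that of Mt1 over the 12 libraries were Mt2 (r = 0.978), Cyp2c29 (r = 0.913), Pzp (r = 0.881), Snx10 (r = 0.852) and Crp (r = 0.848). Cyp2c29 is a cytochrome P450 and Crp an acute phase protein. After removal of the group means the r of Cyp2c29 was 0.925 and that of Crp 0.56. For Mt2 the most alike were Mt1, Cyp2c29 (r = 0.933), C3 (r = 0.894), Ambp (r = 0.887) and Crp (r = 0.876). C3 is on the acute phase list. With the group means removed, the r with Mt2 was 0.917 for Cyp2c29, 0.708 for C3, 0.713 for Ambp and 0.637 for Crp. These are descriptions over libraries that share their groups, in which WT corn oil replicate 1 and the hCAR/hPXR libraries hold the high values.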

How the data were processed

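RNAseq of liver was analysed for 12 mice, 3 in each of 4 groups, which the labels give. Expected counts for each gene were deposited, made by the authors with RSEM 1.3 after trimming and alignment with STAR 2.5.2 to GRCm38, with no normalization. They also deposited values for 17859 genes on a log2-like scale, made with DESeq2's variance-stabilising transformation, used here for gene symbols and as an alternative. RSEM divides reads that fit several genes. 0 columns were left unmatched to a sample.

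Counts were rounded, and edgeR 4.0.16 was run under R 4.3.3 (expression filter, TMM, quasi-likelihood test, all 12 libraries, 1 mean per group), with Benjamini-Hochberg adjustment over all genes tested. A gene was called at an adjusted p under 0.05 and a fold change over 1.5, and the test over 4 groups at the adjusted p alone. The methods give 3 mice per group, while the labels do not say that replicates are separate mice. Alternatives were RLE size factors, no filter, DESeq2 1.42.0 (the likelihood ratio test across 4 groups), limma 3.58.1 on the transformed values, a fit of the 6 libraries compared, a replicate block and leaving out each library. The 10 genes and all lists were chosen with earlier results of these data known. From each list the text names the genes called in any comparison, or otherwise the 3 most abundant. For Mt1 and Mt2 it names the 5 most correlated genes. Slc39a14, Nqo1 and the other members are always named. Promoter windows are from RefSeq (GRCm38.p6) and gene positions from GENCODE M21, another release than the authors' annotation.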

Additional observations from a re-analysis of the deposited data

How the results depend on the processing

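Mt1 and Mt2 were called between hCAR/hPXR mice and WT or Car KO/hPXR mice given CITCO with DESeq2, limma, RLE size factors, the 6 libraries compared and the replicate block, and their direction held in these and in every fit that left out 1 library. The number of the 9 genes called was 0 to 2 in each of these comparisons when 1 library was left out. Across the 4 groups it was 1 to 2, and 1 without hCAR/hPXR replicate 3. For hCAR/hPXR mice over WT corn oil it was 0 to 2 with 1 library left out, 2 with limma, 3 without a filter (with Slc39a14) and 0 with only the 6 libraries compared. Between Car KO/hPXR and WT CITCO mice it was 1 (Gclc) with DESeq2 and 1 without a filter, and between Car KO/hPXR and WT corn oil mice 1 (Mt1, log2 fold change -0.74) without a filter. The fit without a filter (20067 genes) supports no call: it estimated an infinite prior degree of freedom, so that no gene kept its own quasi-likelihood variance, and that of Mt1 was 0.742 against 6.63 with the filter. The causes of the other changes were not tested.

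Libraries of the same replicate number showed little likeness. Their deviations from the group means correlated with r between -0.06 and 0.07 in 18 pairs, and between -0.12 and 0.14 for different numbers. Such weak correlations cannot exclude a pairing or a batch by replicate number. With a replicate block, the adjusted p across the 4 groups was 0.00184 for Mt1 and 0.000291 for Mt2 (edgeR). With a replicate block, 2 of the 9 genes were called for hCAR/hPXR mice over WT corn oil (Mt1 with 2.48 on the log2 scale and an adjusted p of 0.0133, edgeR), and no other comparison changed its count of calls.

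Signs reversed only for differences that passed no test in the reported fit. For Gclm in hCAR/hPXR over WT CITCO mice the log2 fold change was -0.014 with DESeq2, -0.014 with limma, -0.0039 with the 6 libraries and -0.014 with RLE size factors, for Mt2 in WT CITCO over corn oil 0.0819 with limma, and for Sod1 there -0.0013 without a filter. An alternative chosen after seeing the data kept hCAR/hPXR replicate 3 alone in its group. Its log2 fold changes over WT CITCO were 0.0672 for Gclc, -0.0134 for Gclm and -0.0118 for Sod1. That of Gclc over corn oil was 0.12. With 1 library left out, the log2 fold changes for WT CITCO over corn oil ranged from -0.98 to 1.06 for Mt1, -0.95 to 1.61 for Mt2, -0.0944 to 0.19 for Gclc and -0.10 to 0.12 for Sod1. For hCAR/hPXR over WT CITCO they ranged from -0.22 to 0.0286 for Gclc, -0.0485 to 0.0312 for Gclm, -0.0476 to 0.18 for Sod1 and -0.071 to 0.19 for Txnrd1, and for Gclc in hCAR/hPXR over corn oil from -0.22 to 0.0841. For Car KO/hPXR over WT CITCO they ranged from -0.60 to 0.13 for Mt2, -0.29 to 0.17 for Slc39a14, -0.10 to 0.25 for Srxn1 and -0.19 to 0.0524 for Sod1. For Car KO/hPXR over corn oil they ranged from -1.18 to 0.86 for Mt1, -1.18 to 1.38 for Mt2, -0.27 to 0.0786 for Srxn1, -0.18 to 0.066 for Sod1 and -0.27 to 0.14 for Txnrd1. Depth limits Nqo1, at 0 to 10 counts per library.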
